A study of Mus musculus with 5 samples.

Results

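The genes described here are 34 genes of the ATF4 response, the transcription program with which a cell answers a shortage of amino acids. They were taken by symbol from the 23478 rows of the count table of Igf1r-deleted and control lung fibroblasts, whatever their values, and fall into 8 ATF4 factors and regulators, 9 enzymes of amino acid and one-carbon metabolism, 7 amino acid transporters and 10 cytosolic aminoacyl-tRNA synthetases. RNA-Seq was carried out on GFP-positive cells sorted from mouse lungs on P6, after 100 µg of tamoxifen per pup on P0 and on P1. There were 2 control libraries, whose cells were labelled Rosa-EGFP, Igf1r Flox/Wildtype and Gli1creER+, and 3 Igf1r-deleted libraries, whose cells were labelled Rosa-EGFP, Igf1r Flox/Flox and Gli1creER+. Both groups therefore carried the Cre, the reporter and at least 1 floxed Igf1r allele and received tamoxifen, so that cells able to lose 1 copy of Igf1r were compared with cells able to lose both. The comparison asks which transcripts differ when the receptor for IGF1 is lost from these cells.

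The Cre is driven from Gli1 and is active in several kinds of lung fibroblast, so GFP marks a lineage and not a single cell type. The study used mice of both sexes on a mixed background, and the number of pups behind each library is not given in the sources used here. The p-values below therefore measure the spread between libraries. In RNA from a sorted population, fewer cells of a type and less RNA per cell cannot be told apart.

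ATF4 is held back by short reading frames ahead of its own coding sequence and is translated when the initiation factor eIF2 is phosphorylated, by GCN2 when uncharged tRNA accumulates or by PERK when proteins misfold in the endoplasmic reticulum. Signalling from growth factor receptors through PI3K, AKT and mTORC1 also raises ATF4 protein, and in cultured fibroblasts it does so without amino acid shortage. ATF4 binds together with C/EBP proteins at C/EBP-ATF response elements, and its targets make serine, glycine, asparagine and proline, import amino acids and load them onto tRNA. Much of this control acts on translation, which transcript counts do not measure.

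The element was searched as TGATGNAA, on both strands, from 250 bases before to 50 bases after the start of each gene in RefSeq promoters (GRCm38.p6). A promoter was found for 29 of the 34 genes (not for Cth, Slc7a5, Slc1a5, Wars and Nars), and 12 of the 29 held the element (41.38%), against 1219 of 27025 genes in the promoter table (4.511%). The genes are known ATF4 targets, so this share describes how they were chosen. The synthetases held it most often, in 5 of 8, followed by the transporters in 2 of 5, the factors in 3 of 8 and the enzymes in 2 of 8. Sequences of 4 of these synthetases are printed because 2 of them, Iars and Tars, are among the genes with the smallest p-values below, and those of Slc7a11 and Chac1 because the former holds 2 elements and the latter had the lowest fold change. Each is read 5′ to 3′ on the strand of the gene, with the element in capitals, which is TTNCATCA where it lies on the opposite strand.
Iars, chr13:49682127-49682154, plus strand: actgtcagtaTTGCATCAcctccagacg
Tars, chr15:11399659-11399683, minus strand: aggagtcccgTTGCATCAgctggtt
Yars, chr4:129189896-129189923, plus strand: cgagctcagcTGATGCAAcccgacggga
Gars, chr6:55037945-55038000, plus strand: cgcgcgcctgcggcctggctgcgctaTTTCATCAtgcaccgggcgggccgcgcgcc
Slc7a11, chr3:50443646-50443705, minus strand: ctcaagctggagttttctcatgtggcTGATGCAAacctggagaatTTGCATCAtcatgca
Chac1, chr2:119351023-119351082, plus strand: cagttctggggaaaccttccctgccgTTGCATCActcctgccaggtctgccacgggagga
The elements of Iars and Yars began at bases 8 and 4 after the RefSeq start, within annotated exons of GENCODE M21, and those of Tars and Gars began 15 and 30 bases before it. Those of Iars and Tars shared the same 8 bases, TTGCATCA, with those of Chac1, Nupr1 and Slc1a4 and with the second element of Slc7a11. A match of these letters is not evidence that a factor bound there. Elements outside the searched bases, or of other letters, were not counted, so a gene without a match may still hold one.

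The libraries held 35116766 to 37597857 counts, with 17099 to 17239 genes at 1 count or more, and replicates within a group differed 20.8 to 45.3 times more than counting error alone would give (chi-square over degrees of freedom). Levels are given as CPM, counts scaled to a common library size by edgeR's TMM factors, and fold changes as log2 of Igf1r-deleted over control with the standard error (SE). Igf1r itself stood at 324 CPM in both control libraries and at 140, 177 and 194 CPM after deletion, without overlap. Its log2 fold change was -0.93 (SE 0.14; adjusted p 0.354 by the quasi-likelihood test of edgeR after Benjamini-Hochberg adjustment, 1.14e-05 by DESeq2). Acta2 (407 to 1067 CPM) and Tagln (295 to 660 CPM), listed here as myofibroblast markers, were abundant in all 5 libraries. So were Tcf21 (902 to 1662 CPM) and Plin2 (125 to 223 CPM), listed as markers of lipofibroblasts and matrix fibroblasts. Markers of other cells were present as well, with Sftpc of alveolar type 2 cells at 233 to 552 CPM and Lyz2 of myeloid cells at 142 to 379 CPM. Xist, which is transcribed from the inactive X of female cells, was 170 and 435 CPM in Igf1r-deleted replicates 1 and 3 and between 0.302 and 4.09 CPM in the other libraries, so the sexes of the pups were not balanced between the groups.

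All 34 genes were abundant enough to be tested. No gene of the ATF4 set passed an adjusted p of 0.05 by edgeR, nor did any of the 15298 genes tested (0.0%). DESeq2 called none of the 34, against 197 of the 13219 genes to which it gave an adjusted p (1.49%). It gave none to Chac1, which it therefore could not call. At an unadjusted p under 0.05, 11 of the 34 genes differed (32.4%), against 12.4% of all genes tested. Of these 11, Atf4, Cebpg, Sesn2, Slc3a2 and Slc1a5 were lower in the Igf1r-deleted libraries (all genes, 6.75%) and Mthfd2, Aldh18a1, Slc7a5, Aars, Iars and Tars were higher (all genes, 5.65%). DESeq2 placed the same 11 genes under 0.05 before adjustment. The libraries of the 2 genotypes did not overlap for 17 of the 34 genes, against 31.0% of all genes, with 9 lower (all genes, 14.9%) and 8 higher (all genes, 16.0%). The median log2 fold change was 0.03 over the 34 genes and 0.01 over all genes tested. Of the 15298 genes tested, 7997 had a log2 fold change above 0 and 7301 below. By group the median was -0.28 for the factors, -0.01 for the enzymes, -0.12 for the transporters and 0.09 for the synthetases. When counts were scaled by library totals, the median of the enzymes was 0.06 and that of all genes tested 0.09.

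**Figure D1:**
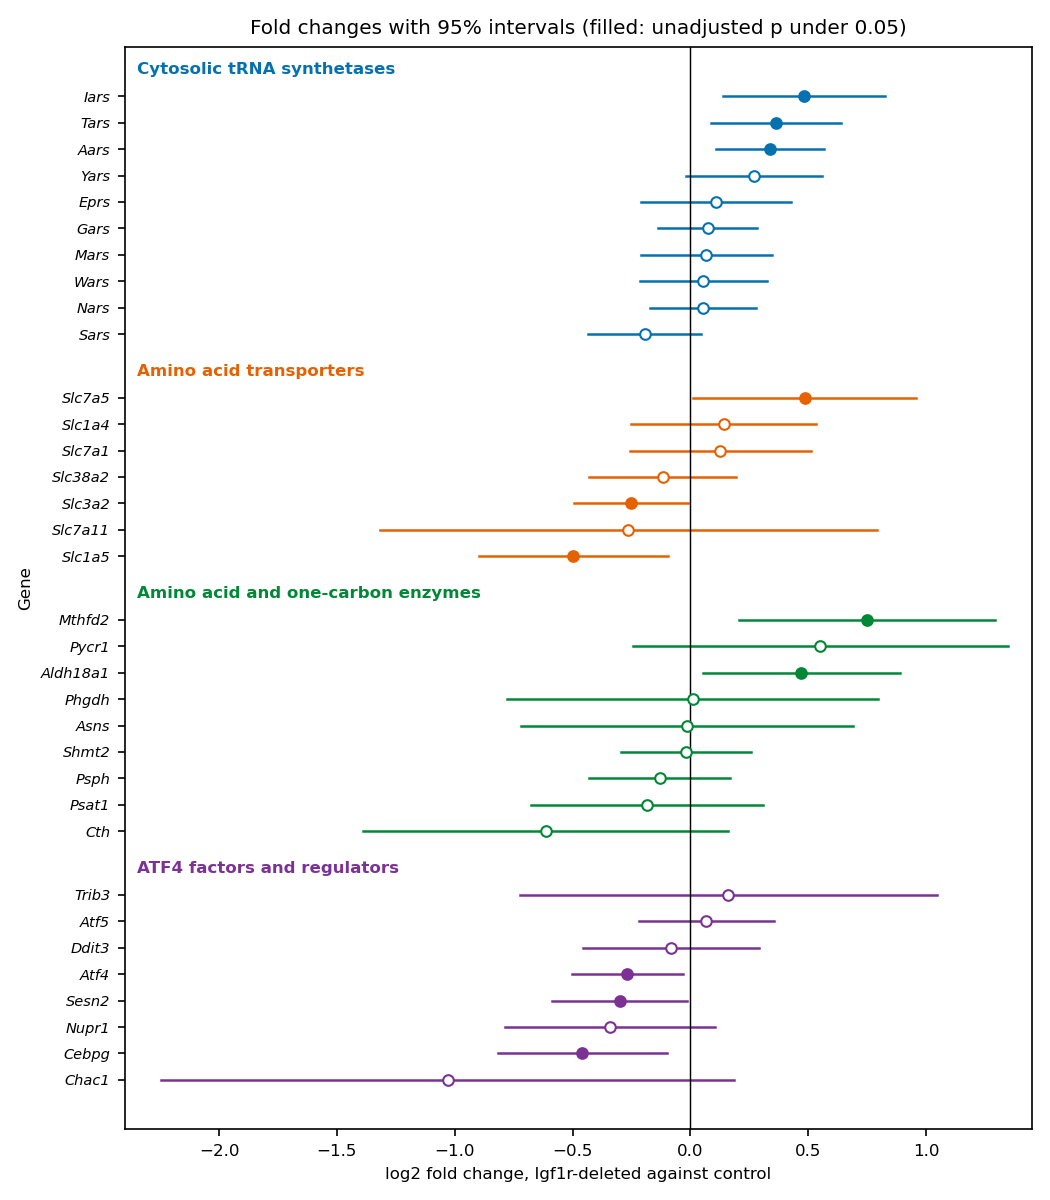
Log2 fold change of each of the 34 genes, Igf1r-deleted against control (horizontal axis), with its 95% interval from the edgeR fit, grouped by role and ordered by fold change. Filled points mark the 11 genes at an unadjusted p under 0.05: 3 factors and 2 transporters to the left of 0, and 3 synthetases, 2 enzymes and 1 transporter to the right.

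Among the factors, Atf4 and its dimer partner Cebpg were lower in the Igf1r-deleted libraries, while Atf5 and Ddit3 differed by less than their spread. Atf4, on chromosome 15 of mm10 from 80255184 to 80257541 (plus strand, 1 stretch of exon sequence in GENCODE M21), stood at 304.5 and 298.3 CPM in the control libraries and at 267.5, 234.7 and 248.7 CPM in the Igf1r-deleted libraries. All 3 deleted libraries were lower than both controls, which were close together. The log2 fold change of Atf4 was -0.27 (SE 0.10; unadjusted p 0.0313, adjusted p 0.376 by edgeR), and it ranged from -0.32 to -0.23 as each library was left out. The unadjusted p of Atf4 was no longer under 0.05 with library totals, a replicate block or Xist as a covariate, nor without either control or Igf1r-deleted replicate 2 or 3. Cebpg, a C/EBP protein that pairs with ATF4 on its response elements (chromosome 7, 35046422 to 35056573, minus strand), measured 68.4 and 52.5 CPM in controls and 49.6, 38.7 and 43.8 CPM in Igf1r-deleted libraries. The groups did not overlap, although control replicate 2 and Igf1r-deleted replicate 1 were near each other. Cebpg had a log2 fold change of -0.46 (SE 0.15; adjusted p 0.354 by edgeR), and of -0.26 without control replicate 1.

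Sesn2 encodes Sestrin 2, a leucine sensor that restrains mTORC1. Its level was 17.2 and 17.7 CPM in controls and 13.3, 14.3 and 14.9 CPM in deleted libraries, again without overlap. Sesn2 had a log2 fold change of -0.30 (SE 0.12; adjusted p 0.398 by edgeR), and of -0.33 without control replicate 1. Chac1, a glutathione-degrading enzyme that is among the most inducible ATF4 targets in stressed cells, was low, at 0.89 and 0.79 CPM in controls and 0.51, 0.23 and 0.50 CPM in Igf1r-deleted libraries. Its groups did not overlap either, but the lowest library held only 9 counts of Chac1. A log2 fold change of -1.03 had an SE of 0.52 and an interval from -2.25 to 0.19.

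The other factors overlapped between the genotypes. Atf5, a close relative of ATF4 under the same translational control, ranged from 115.3 to 147.0 CPM over the 5 libraries with a log2 fold change of 0.07 (SE 0.12). Ddit3, which encodes the stress factor CHOP, ranged from 12.8 to 17.4 CPM, with a log2 fold change of -0.08 (SE 0.16). Trib3, a pseudokinase that CHOP and ATF4 induce, was low at 1.23 to 2.25 CPM, and its log2 fold change of 0.16 had an SE of 0.38. Nupr1, a small stress-induced chromatin protein, stood at 52.3 CPM in control replicate 1 and between 30.1 and 37.4 CPM in the other 4 libraries, including control replicate 2 at 33.8 CPM. Its log2 fold change of -0.34 (SE 0.19) was 0.00 without control replicate 1. Summed over the 8 genes, the level was 584.7 and 548.6 CPM in controls and 534.1, 447.7 and 493.0 CPM in Igf1r-deleted libraries, with control replicate 1 highest and Igf1r-deleted replicate 2 lowest.

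**Figure D2:**
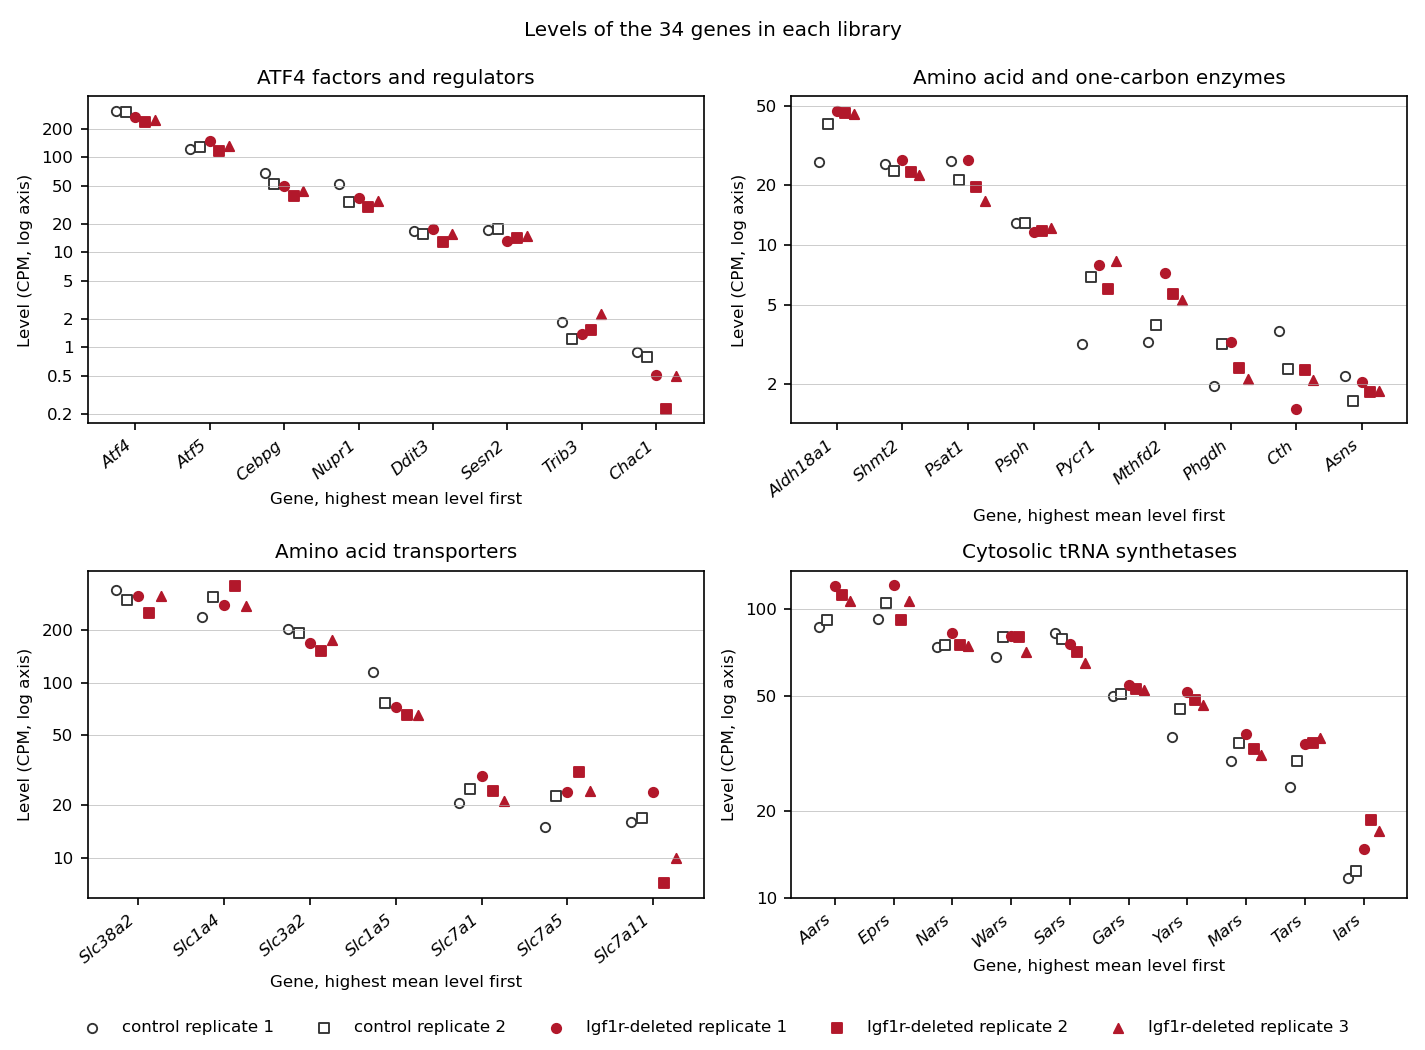
Level of each of the 34 genes in each of the 5 libraries, in CPM on a log axis, in 4 panels by role, with genes ordered by mean level. Open symbols are the 2 control libraries and filled symbols the 3 Igf1r-deleted libraries. For Aars the filled symbols (106.7 to 119.6 CPM) lie above both open ones, and for Atf4 (234.7 to 267.5 CPM) below both.

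Upstream of ATF4, the list of eIF2 kinases and their regulators, an eIF2 subunit, phosphatase subunits and eIF2B had 14 genes. All were tested, and 1 was lower and 1 higher at an unadjusted p under 0.05. This is 14.3% of the list, near the 12.4% of all genes. Ppp1r15a encodes GADD34, which brings a phosphatase to eIF2 and so ends the response, and is itself translated and transcribed under stress. It stood at 398.8 and 336.4 CPM in controls and at 264.3, 252.3 and 311.8 CPM in Igf1r-deleted libraries, all of them below the controls (log2 fold change -0.41, SE 0.13; adjusted p 0.354 by edgeR). Gcn1l1, the ribosome-bound activator of GCN2, was 68.6 and 78.7 CPM in controls and 86.7, 89.9 and 92.7 CPM in Igf1r-deleted libraries, all above the controls (log2 fold change 0.29, SE 0.10; adjusted p 0.364 by edgeR), and the fold change was 0.18 without control replicate 1. Eif2ak4, which encodes GCN2 itself, had 13.3 and 13.7 CPM in controls and 12.6, 18.2 and 18.8 CPM in Igf1r-deleted libraries, which overlapped (log2 fold change 0.29, SE 0.19). The median over the 14 genes was 0.12.

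A further 15 ATF4 targets and partners were listed, of which 14 were tested, all but Fgf21, and 2 were lower and none higher at an unadjusted p under 0.05. This is 14.3% of those tested, near the 12.4% of all genes. Ddit4, which encodes the mTORC1 inhibitor REDD1, was 57.1 and 35.8 CPM in controls and 29.8, 25.1 and 17.98 CPM in Igf1r-deleted libraries. The controls differed from each other by more than control replicate 2 differed from the nearest Igf1r-deleted library. The log2 fold change of Ddit4 was -0.93 (SE 0.25), with an adjusted p of 0.354 by edgeR and 0.038 by DESeq2, and was -0.56 without control replicate 1. Jdp2, an AP-1 repressor whose promoter holds the element, was 70.9 and 49.2 CPM in controls and 50.9, 31.2 and 35.01 CPM in Igf1r-deleted libraries, with Igf1r-deleted replicate 1 above control replicate 2 (log2 fold change -0.62, SE 0.23; -0.34 without control replicate 1). Of these 14 genes 10 had a log2 fold change below 0, against 7301 of the 15298 genes tested, and the median was -0.20.

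Of the enzymes, the mitochondrial folate enzyme Mthfd2 and Aldh18a1, the first enzyme of proline synthesis from glutamate, were higher in the Igf1r-deleted libraries, while the 3 enzymes of serine synthesis had log2 fold changes between -0.18 and 0.01. Mthfd2 (chromosome 6, 83305691 to 83325908, minus strand) stood at 3.25 and 3.96 CPM in controls and at 7.20, 5.68 and 5.32 CPM in Igf1r-deleted libraries. The 3 deleted libraries were all higher than the controls. The fold change, 0.75 on the log2 scale (SE 0.23; unadjusted p 0.0137, adjusted p 0.354 by edgeR), was the highest of the 34 genes and ranged from 0.60 to 0.89 as each library was left out. Aldh18a1 (chromosome 19, 40550257 to 40588463, minus strand) was 26.1 and 40.6 CPM in controls and 47.0, 46.2 and 45.5 CPM in Igf1r-deleted libraries. The groups did not overlap, but the gap between the controls was wider than that between control replicate 2 and any Igf1r-deleted library. For Aldh18a1 the log2 fold change of 0.47 (SE 0.18; adjusted p 0.376 by edgeR) shrank to 0.18 without control replicate 1 and became 0.81 without the other control.

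Pycr1, which completes proline synthesis in mitochondria, showed the same arrangement, with 3.17 CPM in control replicate 1, 6.93 CPM in control replicate 2 and 7.93, 6.01 and 8.29 CPM after deletion. Here the groups overlapped. The log2 fold change of 0.55 (SE 0.34) was 0.09 without control replicate 1.

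For serine synthesis, Phgdh, the first enzyme, ranged from 1.96 CPM in control replicate 1 to 3.26 CPM in Igf1r-deleted replicate 1 (log2 fold change 0.01, SE 0.34), and 56.3% of the 31-base words of its exons are shared with other genes, among them processed pseudogenes, so its counts are uncertain. Psat1, the second enzyme, was 26.4 and 21.2 CPM in controls and 26.7, 19.5 and 16.6 CPM in Igf1r-deleted libraries (log2 fold change -0.18, SE 0.21). Psph, the last, was 12.8 and 13.0 CPM in controls and 11.6, 11.7 and 12.1 CPM in Igf1r-deleted libraries, which do not overlap, with a log2 fold change of -0.13 (SE 0.13; interval -0.43 to 0.17), and 10.4% of its exon length overlaps Cct6a on the opposite strand. Shmt2, which turns serine into glycine in mitochondria, ranged from 22.5 to 26.6 CPM and had a log2 fold change of -0.02 (SE 0.12). These 4 genes thus gave intervals on both sides of 0, the narrowest of them, for Shmt2, from -0.29 to 0.26.

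Asns, the asparagine synthetase and a textbook ATF4 target, was low, at 2.19 and 1.64 CPM in controls and 2.04, 1.81 and 1.84 CPM in Igf1r-deleted libraries. All 3 Igf1r-deleted values lay between the controls (log2 fold change -0.01, SE 0.30). Cth, which makes cysteine from cystathionine, was 3.69 and 2.37 CPM in controls and 1.502, 2.34 and 2.09 CPM in Igf1r-deleted libraries. Control replicate 2 and Igf1r-deleted replicate 2 were almost level, and the log2 fold change of -0.61 (SE 0.33) was -0.27 without control replicate 1.

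The 13 other one-carbon and glycine enzymes were all tested. None had an unadjusted p under 0.05 by edgeR (all genes, 12.4%) or by DESeq2. Of the 13, 11 had a log2 fold change above 0 (all genes, 7997 of 15298), and the median was 0.19. Those with the largest fold changes were Gldc, a subunit of the glycine cleavage system, at 0.25 to 0.56 CPM (0.50, SE 0.60), and the thymidylate synthase Tyms, at 3.92 and 4.58 CPM in controls and 6.21, 5.41 and 5.29 CPM in Igf1r-deleted libraries (0.41, SE 0.20). Of 13 other enzymes of amino acid synthesis and breakdown, 12 were tested, all but Ass1, and only Glul had an unadjusted p under 0.05 by edgeR (8.33%, against 12.4% of all genes). Glul, which makes glutamine from glutamate and ammonia, was 845.1 and 313.2 CPM in controls and 246.4, 223.9 and 213.6 CPM in Igf1r-deleted libraries. Control replicate 1 stood far above the other 4 libraries. For Glul the log2 fold change of -1.34 (SE 0.35; adjusted p 0.354 by edgeR) was -0.46 without control replicate 1 and -1.90, with an adjusted p of 0.0137 by edgeR, without control replicate 2. That p compares 1 control library, the one that stood apart, with 3, and its spread comes from the Igf1r-deleted libraries alone. Of the words in the Glul exons 20.4% are shared with other genes, pseudogenes among them.

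The transporters with an unadjusted p under 0.05 were Slc3a2 and Slc1a5, which were lower in the Igf1r-deleted libraries, and Slc7a5, which was higher. Slc7a5 encodes the light chain LAT1, which pairs with the heavy chain encoded by Slc3a2. The pair brings leucine and other large neutral amino acids into the cell in exchange for glutamine. Slc3a2 (chromosome 19, 8706882 to 8723369, minus strand) was 201.7 and 193.6 CPM in controls and 169.7, 152.1 and 176.1 CPM in Igf1r-deleted libraries. All Igf1r-deleted libraries were below the controls, with a log2 fold change of -0.25 (SE 0.10; adjusted p 0.398 by edgeR). Slc7a5 (chromosome 8, 121881150 to 121907694, minus strand) was 15.1 and 22.5 CPM in controls and 23.8, 31.1 and 24.0 CPM in Igf1r-deleted libraries, all above the controls. For Slc7a5 the log2 fold change of 0.49 (SE 0.20; adjusted p 0.398 by edgeR) was 0.22 without control replicate 1 and 0.79 without the other control. The difference between these 2 fold changes was not tested.

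Slc1a5 encodes ASCT2, which imports glutamine. Its level (chromosome 7, 16781340 to 16798274, plus strand) was 115.4 CPM in control replicate 1, 76.2 CPM in control replicate 2 and 72.5, 65.3 and 65.7 CPM after deletion. The groups did not overlap, but control replicate 2 was closer to the Igf1r-deleted libraries than to the other control. For Slc1a5 the log2 fold change of -0.50 (SE 0.17; adjusted p 0.357 by edgeR) shrank to -0.17 without control replicate 1 and became -0.78 without the other control.

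Slc7a11, the cystine and glutamate exchanger xCT, differed more between replicates than any other of the 7 transporters. It was 16.0 and 16.8 CPM in controls, but 23.8 CPM in Igf1r-deleted replicate 1 against 7.19 and 9.99 CPM in replicates 2 and 3, so that Igf1r-deleted libraries lay on both sides of the controls (log2 fold change -0.26, SE 0.45). Slc38a2, the neutral amino acid transporter SNAT2, ranged from 251.3 to 337.9 CPM (log2 fold change -0.12, SE 0.13). Slc1a4, which carries serine and alanine, ranged from 238.7 to 358.1 CPM (log2 fold change 0.14, SE 0.17). The arginine and lysine transporter Slc7a1 ranged from 20.7 to 29.4 CPM (log2 fold change 0.13, SE 0.16). All 4 of these genes overlapped between the genotypes.

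Of 21 other amino acid transporters 19 were tested, with 2 lower and 1 higher at an unadjusted p under 0.05 and a median of 0.03. These calls are 15.8% of those tested, near the 12.4% of all genes. Slc43a1, the leucine transporter LAT3, was 17.2 and 13.0 CPM in controls and 9.92, 7.69 and 8.04 CPM in Igf1r-deleted libraries, without overlap. Slc43a1 had a log2 fold change of -0.82 (SE 0.19), with an adjusted p of 0.354 by edgeR and 0.0245 by DESeq2, and of -0.61 without control replicate 1. Slc6a9, a glycine transporter, was 39.3 and 31.5 CPM in controls and 30.7, 27.4 and 27.7 CPM in Igf1r-deleted libraries (log2 fold change -0.31, SE 0.13; -0.14 without control replicate 1 and -0.47 without the other control). Slc7a10, the small neutral amino acid exchanger Asc-1, was 27.4 and 37.2 CPM in controls and 40.1, 47.2 and 50.2 CPM in Igf1r-deleted libraries, all above the controls (log2 fold change 0.51, SE 0.16; 0.30 without control replicate 1). Exons of Slc6a9 (30.3% of their length) and Slc7a10 (17.9%) overlap genes of the opposite strand, so their counts are uncertain.

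The cytosolic synthetases had log2 fold changes above 0 for 9 of 10 genes, and 3 of them, Aars, Iars and Tars, which load alanine, isoleucine and threonine, were higher at an unadjusted p under 0.05. Aars (chromosome 8, 111033144 to 111057664, plus strand) was 86.7 and 91.5 CPM in controls and 119.6, 111.5 and 106.7 CPM in Igf1r-deleted libraries. The lowest Igf1r-deleted library was well above the higher control. For Aars the log2 fold change was 0.34 (SE 0.10; unadjusted p 0.0102, adjusted p 0.354 by edgeR), between 0.29 and 0.37 as each library was left out. Of the exon length of Aars 15.1% overlaps other genes, mainly Exosc6 on the same strand, so some of its counts are uncertain. Iars (chromosome 13, 49682100 to 49734267, plus strand) was 11.7 and 12.3 CPM in controls and 14.7, 18.6 and 17.0 CPM in Igf1r-deleted libraries, also without overlap. For Iars the log2 fold change was 0.48 (SE 0.15; adjusted p 0.354 by edgeR), between 0.40 and 0.56 as each library was left out, and 14.7% of its exon words are shared with other genes, mainly the pseudogene Gm4849. Tars (chromosome 15, 11382301 to 11399665, minus strand) was 24.2 and 29.7 CPM in controls and 34.1, 34.2 and 35.6 CPM in Igf1r-deleted libraries. The Igf1r-deleted libraries were nearly level and above both controls. The log2 fold change of Tars was 0.36 (SE 0.12; adjusted p 0.354 by edgeR), and 0.22 without control replicate 1.

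Yars and Gars, for tyrosine and glycine, were also above both controls in every Igf1r-deleted library. With Aars, Iars and Tars, 5 of the 10 genes were higher without overlap (all genes, 16.0%) and 1 was lower (all genes, 14.9%). Yars was 36.0 and 45.0 CPM in controls and 51.5, 48.5 and 46.4 CPM in Igf1r-deleted libraries (log2 fold change 0.27, SE 0.12; 0.11 without control replicate 1). Gars was 50.1 and 50.9 CPM in controls and 54.4, 52.9 and 52.3 CPM in Igf1r-deleted libraries (log2 fold change 0.07, SE 0.09). Sars, for serine, was the exception, at 82.2 and 78.9 CPM in controls and 75.6, 70.6 and 65.1 CPM in Igf1r-deleted libraries, all below the controls (log2 fold change -0.19, SE 0.10; unadjusted p 0.0991). The genes for tryptophan (Wars), asparagine (Nars), methionine (Mars) and glutamate with proline (Eprs) overlapped between the genotypes, with log2 fold changes of 0.06, 0.06, 0.07 and 0.11. Without control replicate 1, those of Wars and Mars were -0.063 and -0.038. That library was the control farther from the Igf1r-deleted mean for all 10 synthetases. The 5 synthetases whose promoters hold the element are Aars, Iars, Tars, Yars and Gars, with log2 fold changes from 0.07 to 0.48 and a median of 0.34. The median of the 3 whose promoters lack it, Sars, Mars and Eprs, was 0.07. Wars and Nars, for which no promoter was found, are in neither group. Chac1, Nupr1, Slc7a11 and Asns also hold the element and had log2 fold changes below 0. Over all groups the 12 genes with it had 8 values above 0 and 4 below, with a median of 0.15. The 17 without it had 7 above and 10 below, with a median of -0.08. The difference was not tested. Summed over the 10 genes, the level was 554.6 and 602.5 CPM in controls and 669.7, 615.8 and 606.0 CPM in Igf1r-deleted libraries.

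The other 13 cytosolic synthetases and proteins of the multisynthetase complex were all tested, with 2 lower and 2 higher at an unadjusted p under 0.05. These are 30.8% of the list, against 12.4% of all genes. Of the 13, 10 lay above 0 (all genes, 7997 of 15298), with a median of 0.10. Cars, for cysteine, was 5.64 and 7.42 CPM in controls and 8.76, 8.85 and 10.7 CPM in Igf1r-deleted libraries (log2 fold change 0.53, SE 0.20; 0.34 without control replicate 1). Rars, for arginine, was 16.8 and 19.5 CPM in controls and 24.3, 21.8 and 23.8 CPM in Igf1r-deleted libraries (log2 fold change 0.36, SE 0.12). Lower were Qars, for glutamine, at 29.4 and 27.7 CPM in controls and 25.0, 20.5 and 22.8 CPM in Igf1r-deleted libraries (log2 fold change -0.32, SE 0.12), and the scaffold Aimp1, at 29.7 and 26.1 CPM in controls and 22.7, 21.6 and 22.7 CPM in Igf1r-deleted libraries (log2 fold change -0.32, SE 0.11). The adjusted p-values of these 4 genes were 0.354 to 0.372 by edgeR, and none of the 8 genes of the list with a promoter in the table held the element. The 17 mitochondrial synthetases, which serve a separate tRNA pool, had 12 values above 0 (all genes, 7997 of 15298) and a median of 0.21. At an unadjusted p under 0.05 there was 1 gene, the phenylalanine enzyme Fars2 (5.88% of the list, against 12.4% of all genes). Fars2 was 22.9 and 20.7 CPM in controls and 16.5, 17.2 and 14.4 CPM in Igf1r-deleted libraries (log2 fold change -0.44, SE 0.13; adjusted p 0.354 by edgeR), and 10.7% of its exon length overlaps genes of the opposite strand. None of the 14 mitochondrial synthetases with a promoter in the table held the element.

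**Figure D3:**
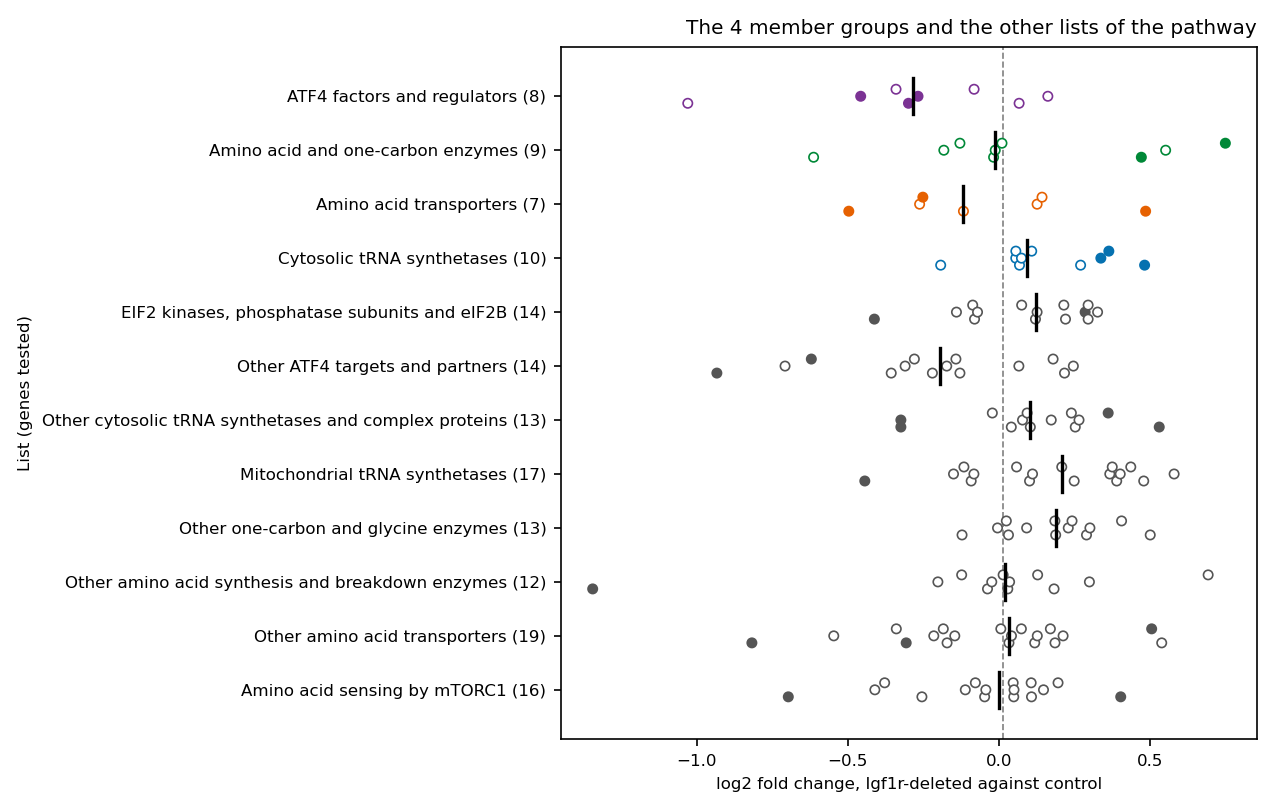
Log2 fold change of every tested gene of the 4 groups (coloured) and of 8 further lists of the pathway (grey), with the number tested in parentheses, the median of each list as a black bar and the median of all genes tested as a dashed line. Filled points have an unadjusted p under 0.05. The median of the ATF4 factors (-0.28) lies left of that of all genes (0.01) and the median of the cytosolic synthetases (0.09) right of it. Farther right are the medians of the mitochondrial synthetases (0.21), other one-carbon and glycine enzymes (0.19), eIF2 list (0.12) and other cytosolic synthetases (0.10).

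The genes through which amino acids reach mTORC1 (the further Sestrins, CASTOR, GATOR, Rag and Ragulator subunits) numbered 16, all tested, with a median of 0.00. At an unadjusted p under 0.05 there was 1 gene each way, 12.5% of the list against 12.4% of all genes. Sesn1, a relative of Sesn2, was 101.2 CPM in control replicate 1, 55.4 CPM in control replicate 2 and 44.6, 48.8 and 51.3 CPM after deletion, so that control replicate 1 stood apart from the other 4 libraries. A log2 fold change of -0.70 (SE 0.23; adjusted p 0.354 by edgeR) was -0.20 without control replicate 1 and -1.08, with an adjusted p of 0.0399 by edgeR, without control replicate 2. As for Glul, only the control that stood apart then remains, and it gives no spread of its own. Nprl3, a subunit of the GATOR1 complex that holds mTORC1 off when amino acids are short, was 9.88 and 11.5 CPM in controls and 12.4, 14.99 and 15.03 CPM in Igf1r-deleted libraries (log2 fold change 0.40, SE 0.16), and 17.7% of its exon length overlaps Mpg on the opposite strand.

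The fold changes of several of the 34 genes depended on control replicate 1. This library lay farther than control replicate 2 from the mean of the Igf1r-deleted libraries for 30 of the 34 genes, against 66.7% of all genes tested. The difference between the genotypes was larger than the gap between the controls for 14 of the 34, near the share among all genes tested (7345 of 15298). With either control left out, the other is a single library, and the spread in the test comes from the Igf1r-deleted libraries alone. Without control replicate 1, none of the 34 genes had an unadjusted p under 0.05, and the share among all genes was 2.76%. Without control replicate 2 the count was 11, of which 8 were the same genes, against 14.8% of all genes. Without Igf1r-deleted replicate 2 it was 4 (Mthfd2, Aars, Iars and Tars), against 6.58% of all genes. The fold changes of Atf4, Sesn2, Slc3a2, Aars, Iars and Mthfd2 kept most of their size without control replicate 1, at -0.26, -0.33, -0.23, 0.29, 0.44 and 0.61. Those of Slc1a5 and Aldh18a1 lost more than any other of the 11.

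**Figure D4:**
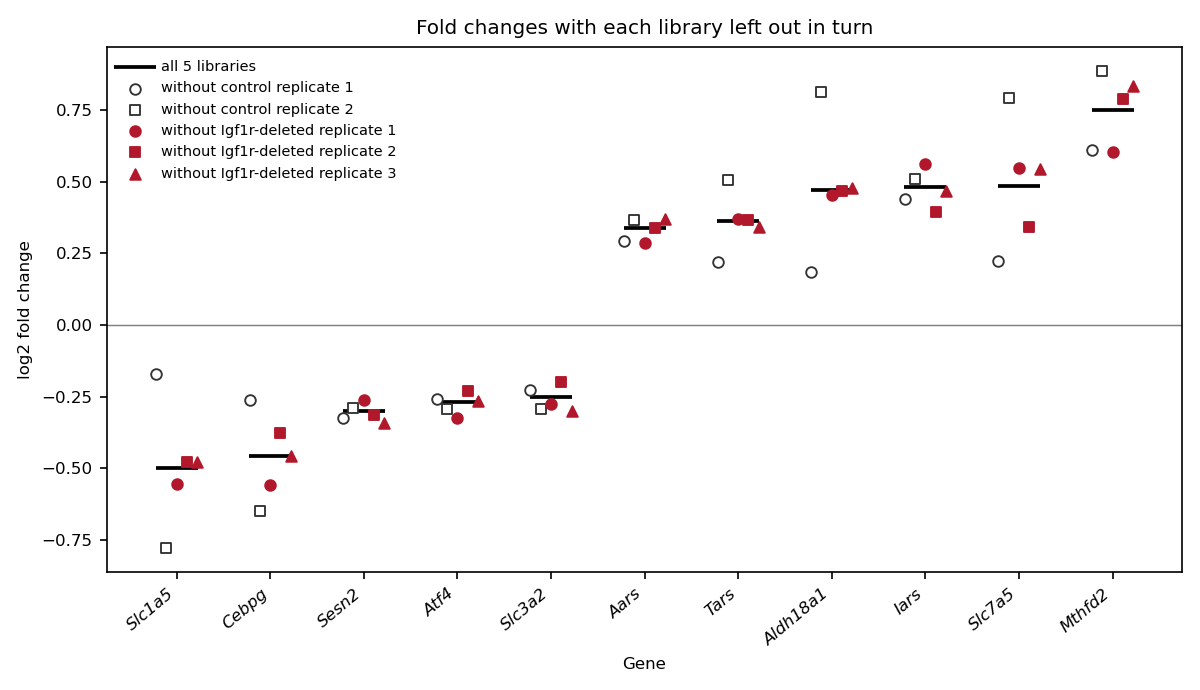
Log2 fold change of the 11 genes at an unadjusted p under 0.05 with all 5 libraries (black bars) and with each library left out in turn (symbols). The open circles, without control replicate 1, lie near the bars for Sesn2, Atf4 and Iars and move toward 0 for Slc1a5 (-0.17) and Aldh18a1 (0.18). No symbol crosses 0.

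Lists of cell type markers also differed from 0 in their medians. All 8 hematopoietic markers had log2 fold changes below 0, with a median of -0.68 and no marker at 0. Their summed level was 354.2 to 541.7 CPM in controls and 187.4 to 432.6 CPM in Igf1r-deleted libraries. At an unadjusted p under 0.05 by edgeR, Cd68 (-0.82) and Cd79a (-1.66) were lower, 25.0% of the list against 12.4% of all genes. Of the 10 epithelial markers 8 were below 0 (median -0.33), with sums of 871.7 to 906.9 CPM in controls and 432.3 to 966.7 CPM in Igf1r-deleted libraries. The 8 myofibroblast markers had a median of 0.45, with 6 above 0 and sums of 3702 to 4017 CPM in controls and 3987 to 4694 CPM in Igf1r-deleted libraries. At an unadjusted p under 0.05 by edgeR, Acta2 (log2 fold change 0.78), Tagln (0.59), Actg2 (0.50) and Fgf18 (0.95) were higher and Hhip (-0.47) lower. These 5 are 62.5% of the list, against 12.4% of all genes. The 6 markers of lipofibroblasts and matrix fibroblasts had a median of -0.27, with 5 below 0 and sums of 7074 to 7206 CPM and 5655 to 6201 CPM. Of these, Tcf21 (-0.57) and Inmt (-0.91) were lower at that p (33.3%). The medians were -0.07 for 8 endothelial, -0.28 for 5 mesothelial and 0.07 for 5 pericyte markers. The part of these cells, and of the sex of the pups, in the fold changes above was not tested, apart from a fit with Xist as a covariate, in which 7 of the 34 genes had an unadjusted p under 0.05, against 10.1% of all genes, and 6 of those were among the 11.

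Per kilobase of exon, Atf4 was the highest of the 34 genes, at 114.8 CPM per kb averaged over the 5 libraries, above 98.1% of the genes tested. It was followed by Slc1a4 (74.3 CPM per kb), Atf5 (64.9), Slc3a2 (50.6) and Slc38a2 (34.3). The synthetases lay between 2.82 (Iars) and 22.0 CPM per kb (Wars). The lowest were Cth (0.859), Trib3 (0.774), Asns (0.696) and Chac1 (0.357), so Chac1 and Atf4 marked the ends of the range in both genotypes. Reads across exon junctions may have been lost in alignment, which would lower genes of many exons such as Iars more than Atf4, and this was not tested, so levels of different genes are comparable only in part. The order of neighbours such as Trib3 and Asns was within the spread of their libraries.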

How the data were processed

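The authors sorted GFP-positive lung cells on a cell sorter, isolated RNA, prepared libraries with a NEBNext Ultra kit and sequenced paired reads. Reads were trimmed (Trim Galore) and placed on mm10 (Bowtie2). The authors deposited whole-number counts per gene with no normalization, which were used here as they are. They also name Cufflinks and DESeq in their processing notes. Bowtie2 aligns without gaps at introns, so reads across exon junctions may be lost, more so in genes of many short exons (Iars has 34 exon segments, Atf4 has 1). This loss was not tested. Neither the annotation nor the strand setting of the counting is given in the sources used here.

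Of 23478 genes, 15298 passed filterByExpr. They were tested with edgeR 4.0.16 (R 4.3.3, limma 3.58.1), using its two-sided quasi-likelihood F test on TMM-scaled counts with no term other than genotype, and p-values were adjusted by Benjamini-Hochberg over all of them. Intervals are 95%. The fit was first tested on simulated counts, whose spread between replicates was set and not taken from these libraries. That test therefore does not measure how many true differences the fit finds here. With 2 libraries against 3, the smallest exact permutation p is 0.1, so no single-gene permutation test was used. Alternatives were DESeq2 1.42.0 (Wald test), other scalings and filters, limma voom, robust empirical Bayes, a replicate block, Xist as a covariate and leaving out each library. Positions, lengths, overlaps and shared 31-base words came from GENCODE M21 and promoters from RefSeq (GRCm38.p6). A count of 0 allows up to 3 counts, which covers counting error only.

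The 34 genes, the other gene lists and the markers, written from general knowledge, were chosen with earlier results of these data known. All 34 genes are named, with the genes of each other list at an unadjusted p under 0.05 (at most 5) or, with none, the 2 largest fold changes. Other genes were named after their values were seen (Eif2ak4). The promoter sequence of 1 of the 34 genes is not reported here.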

Additional observations from a re-analysis of the deposited data

How the results depend on the processing

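No adjusted call was made among the 34 genes under any of the 10 processing alternatives or with any of the 5 libraries left out. Of the 34 genes, 28 kept their direction under all 10 processing alternatives and 22 with each library left out. Over all genes, calls at an adjusted p under 0.05 numbered 0 by edgeR and 197 by DESeq2, 136 with a replicate block, 1 with Xist as a covariate and 0 to 45 as libraries were left out. DESeq2 gave no adjusted p for 5426 genes. Igf1r had a log2 fold change of -0.94 by DESeq2 and -1.04 with the block, both past the threshold. The block gives Igf1r-deleted replicate 3, which has no control of its number, a term of its own. The genotypes are then compared in replicates 1 and 2 only. Scaling by library totals gave 744 genes lower and 1343 higher at an unadjusted p under 0.05 (64.4% higher), against 1032 and 865 with TMM (45.6% higher), and shifted the median of all genes to 0.09. Of the 34 genes it left 2 lower, and Xist as a covariate left 3 higher and moved the median of the transporters to -0.29. As each library was left out, genes lower numbered 252 to 1760 and genes higher 181 to 1423, and of the 34 genes 0 to 7 were lower and 0 to 8 higher. The median of the factors was then -0.30 to -0.14. The lowest of these 4 counts and the median nearest 0 came without control replicate 1, except that none of the 34 genes was lower without Igf1r-deleted replicate 2 either. The cause was not tested.

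The sign turned for Atf5 (-0.062) and Eprs (-0.025) with Xist, for Trib3 with Xist (-0.057) and the block (-0.058), for Asns with library totals (0.060), voom (0.0019) and the block (0.021), for Shmt2 with library totals (0.053) and the block (0.028) and for Phgdh with DESeq2's size factors (-0.00011). With libraries left out it turned in Atf5 (-0.025 to 0.15), Ddit3 (-0.20 to 0.023), Trib3 (-0.11 to 0.48), Nupr1 (-0.63 to 0.0028), Asns (-0.22 to 0.21), Phgdh (-0.30 to 0.39), Shmt2 (-0.10 to 0.036), Slc7a11 (-0.94 to 0.042), Slc7a1 (-0.016 to 0.26), Slc1a4 (-0.039 to 0.34), Wars (-0.063 to 0.17) and Mars (-0.038 to 0.17). The replicate numbers of the labels are not stated to pair the libraries. The deviations of the same-numbered libraries correlated at 0.208 and 0.121 over genes. Control replicate 2 and Igf1r-deleted replicate 3, of different numbers, correlated at 0.119. The deviations of the 2 controls mirror each other, so each correlation has its negative in the other control. These values therefore do not show that the numbers pair the libraries. With the block, 12 of the 34 genes had an unadjusted p under 0.05, 10 of them among the 11 (all but Atf4), against 13.4% of all genes. Atf4, Sesn2 and Slc3a2 were no longer under 0.05 with library totals, and Atf4, Sesn2, Mthfd2, Aldh18a1 and Tars with Xist as a covariate.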
